A study of Sus scrofa with 16 samples.

Results

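The miRNAs described here are ssc-miR-34c and 5 miRNAs that followed it across porcine ovary libraries: ssc-miR-429, ssc-miR-205, ssc-miR-190b, ssc-miR-92b-5p and ssc-miR-885-5p. They are the 6 entries, of 1940 in the count table (216 known and 1724 predicted miRNAs), that matched a list of names covering the miR-34, miR-200, miR-141, miR-429, miR-205, miR-449, miR-190b, miR-885 and miR-92b-5p families. The only member of the 200 family with an entry under its own name was miR-429, and no entry was named miR-34a, miR-34b, miR-200, miR-141 or miR-449. The list was drawn up because these miRNAs had high counts in the same libraries, so their joint rise is a description and carries no test.

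Small RNA libraries came from ovarian tissue of 16 Canadian Large White sows, 1 library per sow, with 4 sows in each of 4 groups. LH sows (high fecundity) and LL sows (low fecundity) were sampled in the luteal phase, 14 days after estrus. FH sows (high fecundity) and FL sows (low fecundity) were sampled in the follicular phase, at 20 days. Fecundity had been defined by litter size over several parities and not by an engineered genotype, and the low-fecundity sows were of lower parity. Library totals ranged from 8998496 to 37194836 counts. Levels are given in CPM, reads scaled to a common library size after TMM normalization, a scaling that sets the bulk of the miRNAs level between libraries. The samples were bulk tissue, so more cells of a type and more of a miRNA per cell cannot be told apart.

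A miRNA guides silencing of mRNAs that match its seed, bases 2 to 8 of the mature strand. The miR-34 and miR-449 families share a seed and are known from multiciliated epithelium, such as that of the oviduct and airway, and from the testis, and miR-34 is also a target of p53. The miR-200 family, to which miR-429 belongs, holds cells in an epithelial state by repressing ZEB1 and ZEB2, repressors of E-cadherin, and miR-205 represses the same pair. Among the others, miR-190b is a paralog of miR-190a, and miR-92b-5p is the minor strand of a hairpin whose major strand belongs to the miR-92 family. In the pig annotation Sscrofa11.1, MIR34C-1 overlaps BTG4, MIR885 lies in ATP2B2, and MIR190B neighbours TPM3.

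Mature sequences of the 6 known miRNAs were not analysed here, but the authors' list of predicted miRNAs gives sequences for 1700 of its 1724 entries. The entries below are shown because they rose with miR-34c or miR-429, or share a seed with one that did, and they were picked after their counts had been seen. Capitals mark the seed, positions are those of the predicted precursors in Sscrofa10.2, and the entries carry no family name here.

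NovelmiRNA-240, chr9:44167439-44167498, minus strand: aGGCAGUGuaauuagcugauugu
NovelmiRNA-1528, chr16:36468129-36468191, minus strand: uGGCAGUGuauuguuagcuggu
NovelmiRNA-1654, chr16:36468250-36468312, minus strand: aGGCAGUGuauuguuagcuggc
NovelmiRNA-800, chr6:58064309-58064367, plus strand: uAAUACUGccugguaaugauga
NovelmiRNA-388, chr5:66194131-66194194, minus strand: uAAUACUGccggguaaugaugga
NovelmiRNA-150, chr5:66193719-66193782, minus strand: uAACACUGucugguaaagaug
NovelmiRNA-1515, chr15:133957558-133957615, plus strand: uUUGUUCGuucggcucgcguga

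The seed GGCAGUG of the first 3 is known as that of the miR-34 and miR-449 families. The seeds AAUACUG and AACACUG are known as those of the miR-200 family. NovelmiRNA-1528 and NovelmiRNA-1654 start 121 bases apart, and NovelmiRNA-388 and NovelmiRNA-150 start 412 bases apart, so each pair lies close together on 1 strand. NovelmiRNA-337, on an unplaced scaffold, had the sequence and the counts of NovelmiRNA-1528 and was not counted again. Several entries overlap one another at the same place and split its reads between libraries, so overlapping entries were summed, and their levels below are those of the summed locus.

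The libraries LH4, FL2 and FL4 stood apart from the other 13 within their own groups. In these, miR-34c took 1.95% (LH4), 0.836% (FL2) and 1.86% (FL4) of all counts. In the other 13 libraries its share ran from 0.0025% to 0.0131%. Among the 216 known miRNAs it ranked 9th, 19th and 13th in LH4, FL2 and FL4, and between 86th and 147th elsewhere. High miR-34c thus occurred in 1 luteal sow of high and 2 follicular sows of low fecundity. Each result below that includes these libraries is also given without them.

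The level of miR-34c was 49.7, 42.0, 115 and 21379 CPM in LH1 to LH4 and 22.1, 18.3, 40.7 and 31.7 CPM in LL1 to LL4. In the follicular phase it was 82.5, 196, 145 and 142 CPM in FH1 to FH4 and 55.7, 7335, 85.1 and 15224 CPM in FL1 to FL4. LH4, FL2 and FL4 lay 109, 37.5 and 77.8 times above FH2, the highest of the other 13 libraries. FL1 and FL3, of the same group as FL2 and FL4, were near the lower end of the follicular sows.

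miR-429 was also highest in FL4, LH4 and FL2, at lower levels, and was raised in 1 further library. It had 2.01, 2.84, 10.6 and 103 CPM in LH1 to LH4, and 0.946, 1.03, 0.963 and 18.7 CPM in LL1 to LL4. In FH1 to FH4 it had 1.79, 4.06, 4.44 and 4.76 CPM, and in FL1 to FL4 2.93, 42.5, 2.37 and 341 CPM. LL4 was the highest of the other 13 libraries for miR-429, although its miR-34c level was ordinary for the luteal sows.

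For miR-190b, the 13 libraries lay between 0.280 and 1.13 CPM, and LH4, FL2 and FL4 reached 46.0, 24.1 and 168 CPM, 40.8, 21.3 and 149 times the highest of them. Its paralog miR-190a had 43.0, 37.1 and 40.2 CPM in these 3 libraries, within the 6.09 to 102 CPM of the other 13. The minor strand miR-92b-5p had 28.7, 42.0, 33.7 and 386 CPM in LH1 to LH4 and 14.9, 16.8, 18.1 and 21.5 CPM in LL1 to LL4. It had 20.2, 21.6, 33.0 and 30.8 CPM in FH1 to FH4 and 26.1, 265, 22.3 and 983 CPM in FL1 to FL4. The level of miR-92a, of the family of the opposite strand, was 2096, 1509 and 1291 CPM in LH4, FL2 and FL4, within the 926 to 3516 CPM of the others. The rise in the 3 libraries was thus seen for miR-190b and miR-92b-5p and not for these relatives.

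miR-885-5p was close to absent outside the same libraries, with 43.1, 25.5 and 61.8 CPM in LH4, FL2 and FL4. In the other 13 libraries it lay between 0 and 1.59 CPM. LH2 and LH3 had a count of 0, which allows up to 0.129 and 0.149 CPM of the library total. Levels below about 2 CPM rest on few counts, so no order among those 13 libraries is read for miR-190b and miR-885-5p.

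miR-205, of stratified and glandular epithelium, stood out less. It had 14.6, 19.3, 9.89 and 53.0 CPM in LH1 to LH4, and 10.1, 6.03, 11.6 and 12.98 CPM in LL1 to LL4. It had 31.8, 52.0, 49.4 and 75.6 CPM in FH1 to FH4, and 25.6, 29.5, 41.2 and 144 CPM in FL1 to FL4. Only FL4 exceeded FH4, the highest of the other 13 libraries, by 1.90 times. LH4 stood above the other luteal sows, and FL2 was within the range of the follicular sows.

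**Figure D1:**
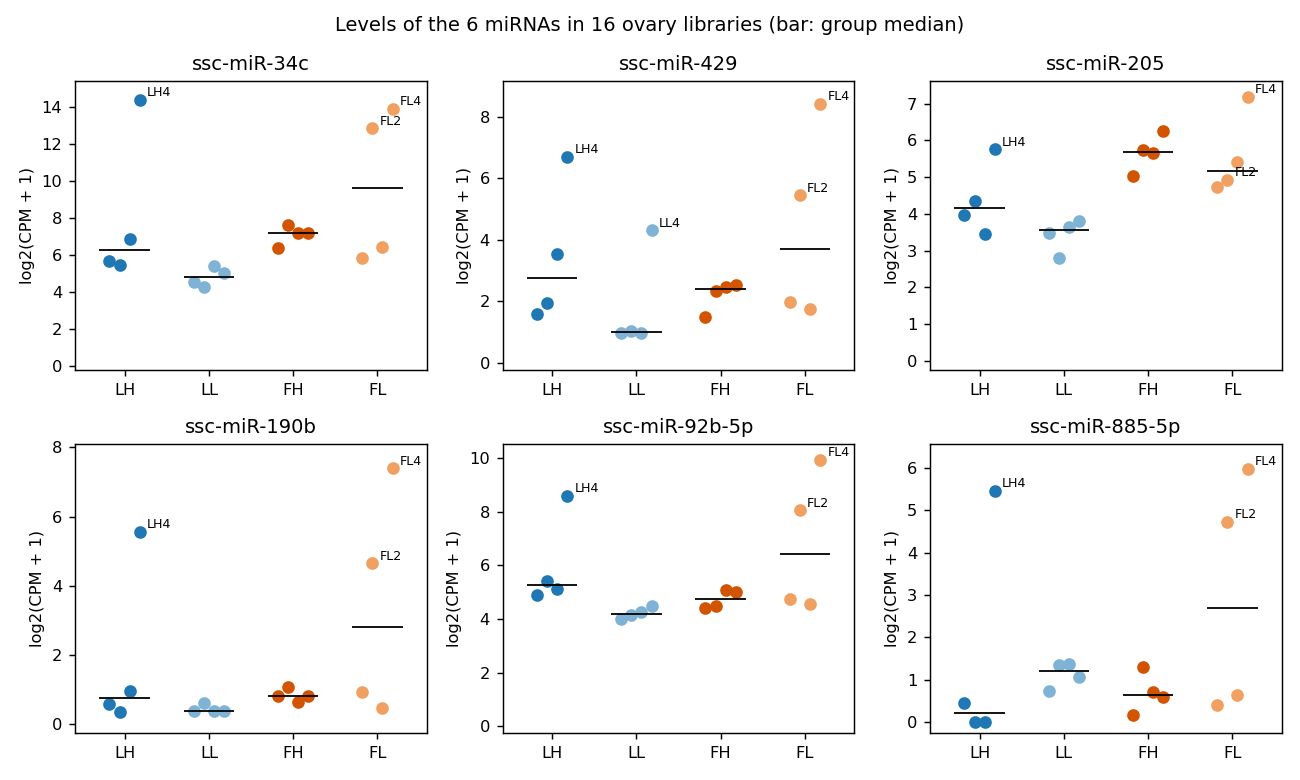
Levels of the 6 miRNAs by group, as log2(CPM + 1) on the vertical axis, with 1 point per sow and a bar at the group median (n = 4). LH4, FL2 and FL4 lie far above the rest of their groups for every miRNA except miR-205, and LL4 stands apart for miR-429 at 18.7 CPM.

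The spread between the 16 libraries was wide. The SD of log2(CPM + 1) was 3.27 for miR-34c, 2.19 for miR-429, 2.18 for miR-190b, 1.96 for miR-885-5p, 1.77 for miR-92b-5p and 1.20 for miR-205, against a median of 0.762 over the 200 known miRNAs tested. Without LH4, FL2 and FL4 the SD of miR-190b, miR-92b-5p and miR-885-5p fell to 0.254, 0.424 and 0.482, below the median of 0.717. For miR-34c, miR-429 and miR-205 it stayed above that median, at 1.06, 0.991 and 1.07. The levels of miR-190b and miR-885-5p in those 13 libraries lay near or below the added 1 CPM, which lowers their SD on this scale.

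Across all 16 libraries, Pearson's r of log2(CPM + 1) with miR-34c was 0.952 for miR-190b, 0.950 for miR-92b-5p, 0.916 for miR-885-5p, 0.894 for miR-429 and 0.675 for miR-205. These values describe the choice of the miRNAs and rest on 3 libraries far from the others. Over the other 13 libraries r was 0.811 for miR-205, 0.487 for miR-92b-5p and 0.360 for miR-429, and none is read for miR-190b and miR-885-5p, whose counts there were few. The points share the library totals and the phases of the sows.

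The predicted loci with the miR-34 seed ran with miR-34c. The locus of NovelmiRNA-240 had 3192, 1014 and 2070 CPM in LH4, FL2 and FL4 and 2.01 to 25.2 CPM elsewhere. Its r with miR-34c was 0.999 over 16 libraries and 0.987 over the other 13, so it tracked miR-34c in the sows with low levels too. The locus of NovelmiRNA-1528 had 1242, 350 and 2701 CPM and 1.79 to 37.3 CPM elsewhere, with r of 0.970 and 0.815. NovelmiRNA-1654, its neighbour with the same seed, had 185 CPM in LH4 and 441 CPM in FL4, and reached at most 5.99 CPM elsewhere. Its count of 0 in FL2 is not read as absence. Entries split reads by library here: the LH4 reads of this locus all sat in the overlapping entry NovelmiRNA-1676.

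The loci with a miR-200 seed had a higher r with miR-429 than with miR-34c among the other 13 libraries. Of these 13, miR-429 was highest in LL4 and then in LH3, and r without these libraries was not computed. NovelmiRNA-388 had 1577, 301 and 2131 CPM in LH4, FL2 and FL4, and its highest value elsewhere was 69.6 CPM, in LL4. NovelmiRNA-150 had 656, 147 and 785 CPM and at most 34.7 CPM elsewhere, in LH3. NovelmiRNA-800 had 2503, 368 and 3461 CPM, but FL2 was only 1.17 times above LH3, which had 313 CPM. Over the 13 libraries, r with miR-429 was 0.868, 0.828 and 0.799 for these 3 loci, and r with miR-34c was 0.0983, 0.355 and 0.119.

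NovelmiRNA-1515, whose seed UUGUUCG is that of neither family, had 144, 186 and 711 CPM in LH4, FL2 and FL4 and 24.8 CPM in LL4. It lay between 1.17 and 3.39 CPM in the other 12 libraries. Its r over the 13 was 0.761 with miR-429 and 0.0291 with miR-34c. The value with miR-429 leans on LL4, which was the highest of the 13 for both. LL4 was thus raised for miR-429, NovelmiRNA-388 and NovelmiRNA-1515, while miR-34c at 31.7 CPM and NovelmiRNA-240 at 5.44 CPM were not. NovelmiRNA-800 was also high in LL4, at 212 CPM, though below LH3. These r values are descriptions over libraries that share their totals and phases, and no difference between them was tested.

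**Figure D2:**
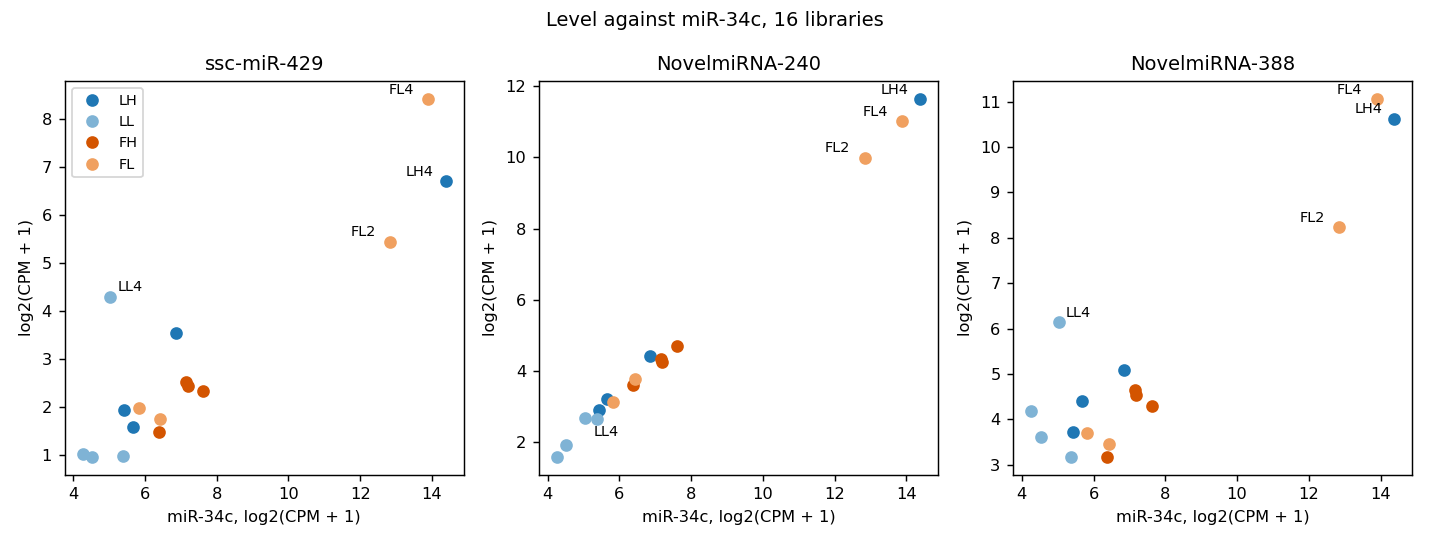
Levels of miR-429 and of the loci of NovelmiRNA-240 and NovelmiRNA-388 against miR-34c, as log2(CPM + 1) on both axes, with 1 point per library coloured by group (n = 16). NovelmiRNA-240 runs along miR-34c from the lowest to the highest library (r = 0.999), whereas LL4 lies off the others for miR-429 and NovelmiRNA-388.

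Among the 194 other known miRNAs tested, the median r with miR-34c was 0.02, and 8 were at or above the 0.675 of miR-205. The most alike was miR-582 (r = 0.868), which had 29.8, 24.5 and 45.9 CPM in LH4, FL2 and FL4 and at most 15.05 CPM elsewhere. It was followed by miR-150, a lymphocyte miRNA (0.819), miR-935 (0.801), miR-204 (0.756), miR-210, induced by hypoxia (0.753), miR-196b-5p (0.704), miR-10a-5p (0.701) and miR-181d-5p (0.701). Where these rose, the rise was smaller than that of miR-34c: miR-150 had 169, 143 and 234 CPM against at most 131 CPM in the other 13. Not all rose in each library. Within the range of the other 13 were miR-210 (226 CPM) and miR-181d-5p (256 CPM) in LH4 and miR-10a-5p (2023 CPM) in FL2. So was miR-196b-5p in FL2 and FL4 (10.4 and 32.4 CPM). The least alike were miR-126-5p, of endothelium (-0.754), miR-137 (-0.696) and miR-532-5p (-0.666). miR-126-5p had 8977, 2461 and 4381 CPM in LH4, FL2 and FL4, and 7751 to 26360 CPM elsewhere. Over the other 13 libraries r with miR-34c was 0.834 for miR-10a-5p, 0.826 for miR-582, 0.822 for miR-150 and 0.788 for miR-210. It was 0.644 for miR-181d-5p, 0.608 for miR-204 and 0.563 for miR-196b-5p. For miR-935 it was -0.406, on levels of at most 0.570 CPM, and is not read. The least alike stayed negative there, at -0.733 for miR-126-5p, -0.683 for miR-137 and -0.775 for miR-532-5p.

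**Figure D3:**
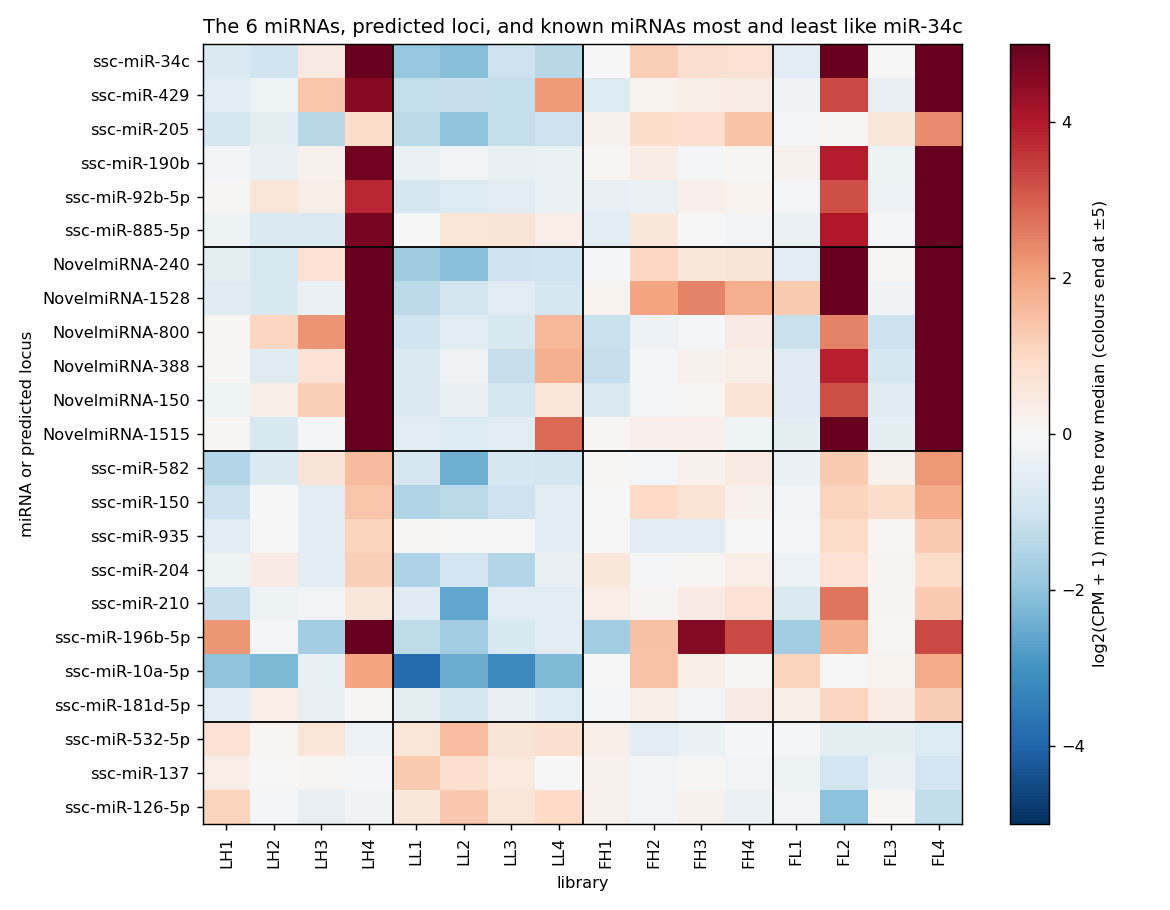
Rows are the 6 miRNAs, 6 predicted loci, and the 8 known miRNAs most like and the 3 least like miR-34c, and columns are the 16 libraries in group order. Colour is log2(CPM + 1) minus the row's median. LH4, FL2 and FL4 form dark columns in the first 12 rows except that of miR-205, and for NovelmiRNA-800 FL2 is close to LH3. LL4 is raised for miR-429, NovelmiRNA-1515, NovelmiRNA-388 and NovelmiRNA-800.

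Known miRNAs of other tissues were summed in each library. Other epithelial miRNAs (miR-182, miR-183 and miR-31) came to 592, 490 and 565 CPM in LH4, FL2 and FL4, inside the 221 to 1398 CPM of the other 13. Within LH this sum ran from 551 to 1244 CPM, with LH4 near the lower end, and within FL from 222 to 565 CPM, with FL4 the highest. Liver and gut miRNAs (miR-122, miR-194a, miR-194b-5p and miR-215) came to 439, 1711 and 928 CPM, against 18.4 to 2673 CPM elsewhere, where the highest was LL4. Muscle miRNAs (6 entries) came to 3256, 565 and 869 CPM, within a range that reached 4256 CPM, and erythrocyte miRNAs (2 entries) to 62.5, 128 and 92.3 CPM within 32.1 to 186 CPM. Leukocyte miRNAs (4 entries) came to 963, 1489 and 1530 CPM within 827 to 2994 CPM, and neural miRNAs (6 entries) to 294, 155 and 501 CPM within 89.2 to 656 CPM. Smooth muscle and stromal miRNAs (miR-143-3p, miR-145-5p, miR-199a-5p and miR-214) came to 246428, 197995 and 208127 CPM within 84507 to 488813 CPM.

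The gonadal list of miR-202-5p and miR-383 came to 1209, 303 and 70.4 CPM, and its level in FL4 was below the 269 to 3844 CPM of the other 13. Its main member, miR-202-5p, known from the granulosa and Sertoli cells of the gonad, had 1209, 302 and 64.5 CPM in LH4, FL2 and FL4. The other member, miR-383, went the other way in FL4, with 5.88 CPM against at most 1.58 CPM in the other 13. It had only 216 counts in all 16 libraries. Within the lists, miR-194a was above the other libraries except LL4 in all 3, at 394, 317 and 761 CPM against at most 59.1 CPM. miR-122 was highest in FL2, at 1363 CPM. Each sum mostly follows its most abundant members, and some members left the range of the other 13. miR-150 was above it in all 3 libraries, as given above. miR-142-5p was 513 CPM in FL4 (at most 256 elsewhere), and miR-9 82.5 and 176 CPM in LH4 and FL4 (at most 68.0). Others were below it: miR-146a-5p with 498 CPM in LH4 (at least 589 elsewhere) and miR-155-5p with 86.8 CPM in FL2 (at least 121). Every list member had at least 1 count in the series. The neural miR-124a had only 3 counts in all 16 libraries, so its 0 in LH4, FL2 and FL4 is not read. The muscle miR-208b, at 0 in the other 13, had 1.35 and 3.11 CPM in LH4 and FL4. The part of other tissue in the pattern was not tested.

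The comparison of LH with LL asks which miRNAs differed with fecundity in the luteal phase. Because the 6 miRNAs were chosen for their levels in libraries that include LH4, the fit on all 8 libraries is a description. By the study's threshold, an unadjusted P under 0.05 with a change of at least 1 on the log2 scale, miR-34c, miR-190b and miR-92b-5p were past it, all lower in LL. The same threshold was passed by 13% of the 362 miRNAs tested (6.35% downward). None of the 6 had an adjusted p under 0.05, which 3 of the 362 had. The log2 fold change (LL over LH) was -7.63 (SE 2.41) for miR-34c, -5.10 (SE 1.82) for miR-190b and -2.82 (SE 0.96) for miR-92b-5p. For miR-885-5p it was -3.19 (SE 2.27), for miR-429 -2.53 (SE 1.63) and for miR-205 -1.27 (SE 0.64). The median was -3.01 over the 6 and 0.15 over all miRNAs tested.

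Without LH4, miR-34c alone was past the threshold, at -1.29 (SE 0.53, edgeR adjusted p = 0.299), where 11.8% of the miRNAs tested passed it. miR-92b-5p was at -0.97 (SE 0.39), miR-205 at -0.53 (SE 0.52), miR-429 at 0.04 (SE 1.36) and miR-885-5p at 3.26 (SE 1.77), and miR-190b had too few counts to be tested. The change of -7.63 on the log2 scale thus came to -1.29 once that sow was left out, with 3 LH sows against 4 LL sows. All 4 LL sows lay below all 4 LH sows for miR-34c and for miR-92b-5p, as for 15.7% of the miRNAs tested, and the other 4 overlapped. That separation of miR-34c depended on the scaling: as CPM of the library total without TMM, LL3 had 61.6 and LH2 38.8. With library size alone and without LH4, the change of miR-34c was -0.63 (SE 0.52) and none of the 6 was past the threshold. With the share of reads kept in cleaning as a covariate, and LH4 included, none was past it, while the changes were -7.33 (SE 3.94) for miR-34c, -4.59 (SE 2.82) for miR-190b and -2.47 (SE 1.45) for miR-92b-5p, close to those without it and with wider errors.

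The same question in the follicular phase, FH vs. FL, had the opposite sign. The fit on all 8 libraries is again a description, since the miRNAs were chosen for their levels in libraries that include FL2 and FL4. miR-34c, miR-190b, miR-92b-5p and miR-429 were past the threshold, all higher in FL, of 5 tested. The threshold was passed by 6.19% of the 307 miRNAs tested (5.54% upward). No adjusted p under 0.05 was found for these by edgeR, where 0.651% of the 307 had one, whereas all 4 had one by DESeq2, as did 11 of the 307. The log2 fold change (FL over FH) was 5.12 (SE 1.68) for miR-34c, 5.66 (SE 1.80) for miR-190b, 3.42 (SE 1.14) for miR-92b-5p, 4.46 (SE 1.55) for miR-429 and 0.07 (SE 0.55) for miR-205. The median was 4.46 over the 5 and 0.12 over all miRNAs tested. miR-885-5p had too few counts to be tested. Its mean log2(CPM + 1) was 2.25 higher in FL, with the groups overlapping.

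Without FL2 and FL4, which leaves 2 FL sows, none of the 5 was past the threshold (1.81% of all miRNAs tested were) and each change was negative: -0.997 for miR-34c (SE 0.43, edgeR adjusted p = 0.983), -0.62 for miR-205, -0.43 for miR-429, -0.18 for miR-190b and -0.06 for miR-92b-5p. In the full set the FH and FL ranges overlapped for each of the 6 miRNAs (2.61% of the miRNAs tested did not overlap). FL2 and FL4 lay above the FH sows for every one except miR-205. FL1 and FL3 lay among or below the FH sows for miR-34c, miR-429 and miR-92b-5p. Their order against the FH sows is not read for miR-190b and miR-885-5p, whose counts there were few. For miR-205 FL4 alone was above the FH sows, FL3 was among them, and FL1 and FL2 were below. With parity as a covariate none of the 5 was past the threshold, while the changes stayed about as large, with wider errors, at 5.42 (SE 3.30) for miR-34c, 5.49 (SE 3.43) for miR-190b, 4.57 (SE 2.98) for miR-429 and 3.28 (SE 2.14) for miR-92b-5p. With the share of reads kept in cleaning as a covariate none was past it and the changes were smaller, at 0.48 (SE 1.13), 1.86 (SE 1.40), 1.15 (SE 1.29) and 1.08 (SE 0.96) for the same miRNAs.

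**Figure D4:**
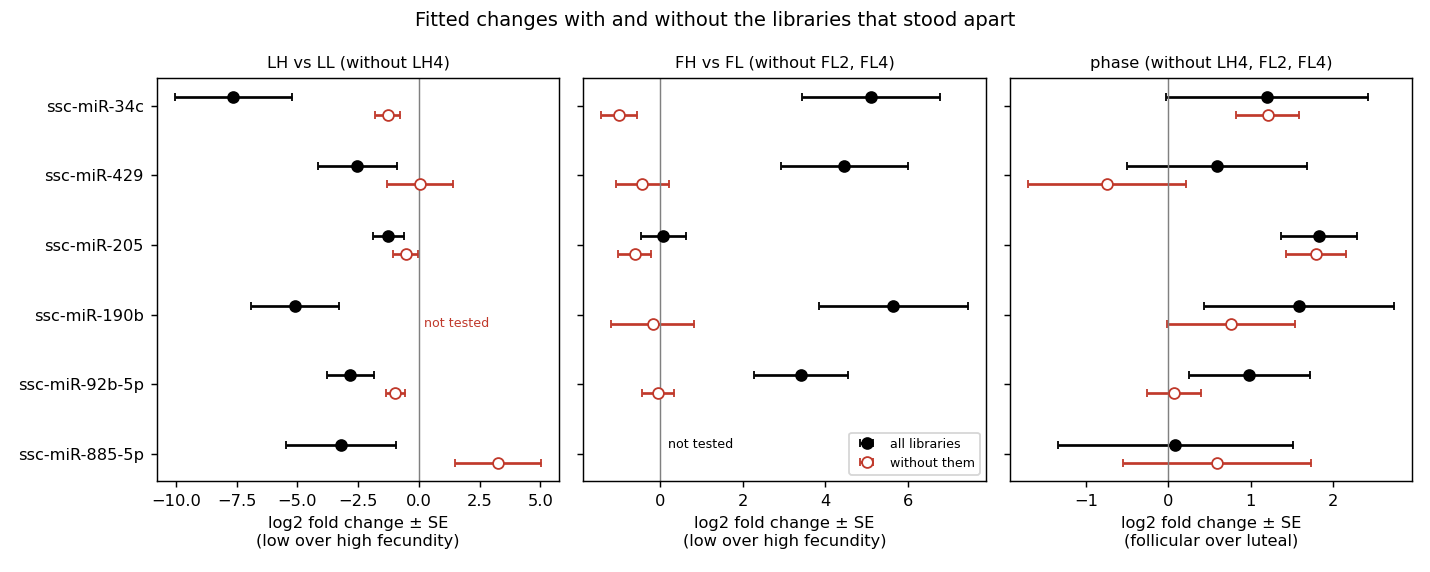
Fitted log2 fold changes with their SE for the 6 miRNAs, from all libraries (filled) and without the libraries named above each panel (open). The fecundity changes shrink towards 0 or turn when LH4, or FL2 and FL4, are left out. With the TMM scaling shown, the phase difference of miR-205 stays near 1.8.

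The difference between the fecundity effects of both phases was fitted on all 16 libraries. For miR-34c it was 12.91 on the log2 scale (SE 3.08), for miR-190b 10.94 (SE 2.72), for miR-885-5p 8.15 (SE 3.10), for miR-429 7.14 (SE 2.41), for miR-92b-5p 6.40 (SE 1.60) and for miR-205 1.45 (SE 0.90). All except miR-205 were past the threshold, which 13.3% of the 445 miRNAs tested passed, and this too is a description, given how the miRNAs were chosen. By edgeR none of the 6 had an adjusted p under 0.05 (0% of the 445). By DESeq2 the 5 other than miR-205 had one, as did 58 of the 445. Without LH4, FL2 and FL4 none was past it, as against 8.58% of all miRNAs tested, and the value for miR-34c was 0.23 (SE 0.77).

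Between the phases, miR-205 was higher in follicular ovaries. The log2 fold change (follicular over luteal) was 1.83 (SE 0.46, edgeR adjusted p = 0.0170) with all 16 libraries and 1.80 (SE 0.36, adjusted p = 0.0118) without LH4, FL2 and FL4. In that smaller set the luteal sows had 6.03 to 19.3 CPM and the follicular sows 25.6 to 75.6 CPM, without overlap (6.74% of the 445 miRNAs), with FL1 the lowest follicular sow and LH2 the highest luteal sow. miR-205 was the only one of the 6 past the threshold in the full set, which 23.4% of the 445 miRNAs tested passed (10.3% upward). An adjusted p under 0.05 was reached by 17.5% of them. With library size alone, the value was 1.49 (adjusted p = 0.0548). With library size alone and without LH4, FL2 and FL4 it was 1.15 (SE 0.40, edgeR adjusted p = 0.0850). The difference stayed past the study's threshold, but its size and its adjusted p depended on the scaling.

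For miR-34c the phase difference was 1.20 (SE 1.23) with all libraries. Without LH4, FL2 and FL4 it was 1.21 (SE 0.38, edgeR adjusted p = 0.0686), past the study's threshold, as were 22.7% of all miRNAs tested, and not the adjusted one. With library size alone, again without those libraries, it was 0.58 (SE 0.35, adjusted p = 0.284), so this difference depended on the scaling. In the 13 libraries the luteal sows had 18.3 to 115 CPM and the follicular sows 55.7 to 196 CPM, which overlap. The other 4 had phase differences of 0.08 to 1.59 with all libraries and of -0.75 to 0.76 without the 3, none past the threshold.

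Among the other epithelial miRNAs the phase difference had the opposite sign. miR-182 was at -2.06 (SE 0.54, edgeR adjusted p = 0.0183) and miR-183 at -2.45 (SE 0.68, adjusted p = 0.0242), both lower in follicular ovaries. These 2 come from 1 cluster. miR-31 did not pass the threshold, and no member of that list rose.

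The share of raw reads kept in cleaning differed between libraries, so its relation to the 6 miRNAs within groups was fitted. None was past the threshold, which 11.7% of the 445 miRNAs tested passed. The slope of miR-34c was -3.44 on the log2 scale per 10 percentage points (SE 3.31, edgeR adjusted p = 0.671). That of miR-205 was -0.74 (SE 0.75). Without LH4, FL2 and FL4 the slope of miR-34c was 0.27 (SE 0.73).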

How the data were processed

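The authors trimmed the reads of 16 small RNA libraries with Trimmomatic, mapped what was kept (the clean read share) to Sscrofa10.2 with Bowtie 2 (version 2.1.0 by the submitters' processing notes) and predicted further miRNAs with miRDeep. The deposited table holds raw counts per miRNA, without normalization. How reads were assigned to miRNAs is not given in the sources used here.

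All miRNAs were fitted by the quasi-likelihood test of edgeR 4.0.16 in R 4.3.3, after TMM normalization and filterByExpr (minimum count 10, minimum total 15), with Benjamini-Hochberg adjustment over all miRNAs tested. LH vs. LL and FH vs. FL used 8 libraries each, and the interaction, phase and clean read share models all 16. Exact two-sided permutation tests (smallest p 0.0286 for 4 against 4) were run where the filter removed a miRNA. For miR-885-5p in FH vs. FL the exact permutation test gave p = 0.286. CPM used TMM effective library sizes, with a pseudocount of 1 for logs. Clean read shares and parities came from the study's supplementary tables. SE was derived from the fold change and its F statistic. The scripts were tested on simulated data.

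The miRNAs, tissue lists and tests were chosen with earlier results of these data known. Besides those matched by name, the 8 known miRNAs most and the 3 least correlated with miR-34c, and the relatives miR-190a and miR-92a, were named by rule. A rule to name predicted miRNAs by a reference sequence table was not applied, since that table was not used here. Predicted entries were instead those with at least 1000 counts and r of at least 0.8 with miR-34c, or with a seed of one of these. One such entry, NovelmiRNA-1651, had r of 0.668 once its overlapping entry was added and is not described further. NovelmiRNA-1515 was singled out after its values were seen. Alternatives were DESeq2 1.42.0, other normalizations and filters, a replicate block, covariates, a single 16-library fit and leaving out sows. Leaving out LH4, FL2 and FL4, alone or with library size only, was chosen after seeing the data. The depth of 8998496 to 37194836 counts puts the limit of a count of 0 at 0.0807 to 0.333 CPM of the total, for counting error only. Known mature sequences and the study's RNA-seq were not analysed here.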

Additional observations from a re-analysis of the deposited data

Results flagged for a closer look

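In 10 of 24 groups of 4 sows (6 miRNAs in 4 groups), the highest library was farther from its neighbour than Dixon's 95% limit. The limit was applied at both ends of each group, on CPM without logs. The miRNAs were chosen for high levels in LH4, FL2 and FL4, so this count is a description, not set against a chance rate. The gap over the range for LH4 was 0.997 for miR-34c, 0.915 for miR-429, 0.986 for miR-190b, 0.962 for miR-92b-5p and 0.991 for miR-885-5p. For FL4 it was 0.882 for miR-429, 0.868 for miR-205 and 0.858 for miR-190b. For LL4 it was 0.995 for miR-429. For miR-190b, LL2 was also past the limit (0.937), a gap between levels below 1 CPM that rest on few counts. FL2 and FL4 lay together above FL1 and FL3 for miR-34c, miR-92b-5p and miR-885-5p, so neither was single there.

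The fitted difference of the fecundity effects between the phases was past the study's threshold for miR-34c (12.91 on the log2 scale, edgeR adjusted p = 0.0813), miR-190b (10.94), miR-885-5p (8.15), miR-429 (7.14) and miR-92b-5p (6.398). That threshold was passed by 13.3% of the 445 miRNAs tested. The miRNAs were chosen for high levels in LH4, FL2 and FL4, so these values too are a description. None of the miRNAs was past the threshold without LH4, FL2 and FL4.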

How the results depend on the processing

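For LH vs. LL, 3 of the miRNAs were past the threshold. DESeq2 gave 1 (miR-205), since it set the p-values of the other 5 to NA for outlying counts, the clean read share 0, no LH4 with library size only 0, and leaving out each sow 1 (without LH4) to 3. Parity gave 4, with miR-34c at -13.48 and miR-429, not past it before, at -9.79. Over all miRNAs tested, 47 of 362 passed in the main fit, 54 with DESeq2, 14 with the clean read share and 53 with parity. Without LH4 it was 49 of 415, and with library size only as well 70 of 415. Leaving out each sow gave 33 of 403 to 94 of 418. For FH vs. FL (4), the clean read share, parity, leaving out FL2 and FL4, and doing so with library size only each gave 0, and leaving out each sow 2 (without FL4) to 5. Among all miRNAs, 19 of 307 passed in the main fit, 6 with the clean read share and 5 with parity. Without FL2 and FL4 it was 7 of 387 by either scaling, and leaving out each sow 11 of 335 to 43 of 344. For the interaction (5), parity gave 3, no LH4, FL2 and FL4 0, and leaving out each sow 3 (without FL4) to 5. Among all miRNAs, 59 of 445 passed in the main fit, 48 with parity and 53 of 618 without LH4, FL2 and FL4. Leaving out each sow gave 57 of 523 to 79 of 515. For the phase (1), no LH4, FL2 and FL4 gave 2, and leaving out each sow 1 to 5, where 5 came without LH4. For the clean read share (0), DESeq2 and no filter gave 1 each (miR-34c). Among all miRNAs, 52 of 445 passed in the main fit, 84 of 445 with DESeq2 and 165 of 1940 with no filter.

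With the replicate number as a block, 1 miRNA was past the threshold in LH vs. LL (miR-429), 0 in FH vs. FL and 3 in the interaction. Among all miRNAs tested, 32 of 362, 4 of 307 and 39 of 445 passed in these fits. Same-numbered sows did not deviate together (r of -0.135 to 0.201 in LH vs. LL and -0.190 to 0.152 in FH vs. FL), and not every sow correlated best with its own number, so the numbers do not pair the sows. The block turned miR-885-5p in LH vs. LL to 2.81, miR-205 in FH vs. FL to -0.17, and the clean read share slope of miR-429 to -1.27.

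Signs turned as follows on the log2 scale. Without LH4, in LH vs. LL: with library size only, miR-429 0.54, miR-205 0.075 and miR-885-5p 3.69. Without FL2 and FL4, in FH vs. FL: miR-34c -0.997, miR-429 -0.43, miR-205 -0.62, miR-190b -0.18, miR-92b-5p -0.058, and with library size only -1.02, -0.53, -0.67, -0.35 and -0.19. Without LH4, FL2 and FL4: in the interaction miR-429 -0.63, miR-205 -0.18, miR-885-5p -4.10, in the phase miR-429 -0.75, in the phase with library size only miR-429 -1.21, miR-92b-5p -0.57, miR-885-5p -0.24, and in the slope miR-34c 0.27, miR-190b 1.16, miR-92b-5p 0.72. The r of miR-885-5p with miR-34c, on few counts, went to -0.229. With the clean read share, miR-205 went to -0.42 in FH vs. FL, and in the phase miR-34c to -0.47 and miR-885-5p to -1.25. In the phase, miR-885-5p was -0.20 with library size only and -0.00494 with at least 10 counts in 4 libraries, and the slope of miR-429 was -0.034 with library size only.

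Leaving out each sow gave these ranges where a sign turned. In LH vs. LL: miR-429 -4.93 to 0.043, miR-885-5p -3.64 to 3.26. In FH vs. FL: miR-205 -0.69 to 0.39. In the phase: miR-429 -0.72 to 1.83, miR-885-5p -0.59 to 3.25. In the slope: miR-429 -3.35 to 3.42, miR-205 -0.98 to 0.012, miR-190b -4.22 to 0.39, miR-92b-5p -2.68 to 0.12, miR-885-5p -4.49 to 0.47.

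Library size in place of TMM moved all miRNAs by a median of 0.60 in LH vs. LL, 0.39 in FH vs. FL, -0.30 in the interaction, -0.37 in the phase and -0.52 in the slope, and the share of calls that were upward from 51.1% to 83.8%, 89.5% to 95.8%, 69.5% to 52.7%, 44.2% to 22.6% and 53.8% to 24.4%. Of the other values, 570 kept direction and side, 38 lost the threshold, 12 passed it, and 9 levels or r values moved by over their error (5 mean levels in LL with library size only, and 4 r values). The causes were not tested.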

Other observations

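LL4, whose miR-429 stood apart, also had high gut miRNAs. miR-194a was 1655 CPM, against at most 59.1 CPM in the 12 libraries other than LL4, LH4, FL2 and FL4. In LL4, miR-194b-5p was 570 CPM and miR-215 446 CPM, against at most 14.9 and 16.2 CPM in those 12. LH4, FL2 and FL4 had 11.7, 2.83 and 5.37 CPM of miR-194b-5p, not above those 12. They had 26.0, 29.0 and 48.1 CPM of miR-215 and 394, 317 and 761 CPM of miR-194a, above those 12 and below LL4. These 2 gut miRNAs were thus raised in LL4 and in the 3 libraries, to a different extent. Only LL4 was raised for miR-194b-5p, and it was not raised for miR-34c. miR-122, of hepatocytes, was 1.76 CPM in LL4 and 1363 CPM in FL2.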
